A study of Mus musculus with 4 samples.

Results

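The islet hormone genes were taken as 10 named rows of a gene expression table of 39170 rows: Ins1, Ins2, Iapp, Gcg, Sst, Ppy, Pyy, Ghrl, Npy and Ucn3. Each symbol matched 1 row, and all 40 of their values, 10 genes in 4 libraries, carried the status OK. The study sorted insulin-positive islet cells of male MIP-GFP C57BL/6 mice, 6 to 8 weeks old, in which the mouse insulin 1 promoter drives green fluorescent protein. The cells were split by the glucose transporter Glut2 (encoded by Slc2a2) into low (Glut2L) and high (Glut2H) gates, because streptozotocin (STZ), a DNA-damaging beta cell toxin, enters cells through it and because the low gate was held to be rich in pancreatic progenitors. The 4 libraries are Glut2L STZ, Glut2L control, Glut2H STZ and Glut2H control, 1 of each. STZ mice had an intraperitoneal dose of 200 mg/kg in citrate buffer and were diabetic 4 days later, control mice had vehicle, and 3 mice made up each group. No source used here tells whether their RNA was pooled. With 1 library per group there is no replicate check, so no test was made and no p-value is given. All differences below are differences between these libraries.

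Several of the hormone genes mark a cell type of the pancreatic islet. Beta cells make insulin, from Ins1 and Ins2 in the mouse, and release amylin (Iapp) with it. Alpha cells make glucagon (Gcg), delta cells somatostatin (Sst), PP cells pancreatic polypeptide (Ppy) and epsilon cells ghrelin (Ghrl). Peptide YY (Pyy) and neuropeptide Y (Npy) belong to the family of pancreatic polypeptide, and urocortin 3 (Ucn3) is a beta cell peptide of mature mouse islets that acts on somatostatin release. Insulin lowers blood glucose, glucagon raises it, and somatostatin restrains the release of both.

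Levels are FPKM, fragments scaled to transcript length and library size, so levels of different genes can be set side by side per length. Summed FPKM ran from 1562040.0 to 3428740.0 per library, and 13714 to 14425 rows reached 1 FPKM. The number of reads is unknown. The Slc2a2 transcript ran against the gate names, with 33.7 and 41.0 FPKM in the Glut2L STZ and Glut2L control libraries, against 10.8 and 8.74 FPKM in the Glut2H STZ and Glut2H control libraries, so gates are called by their labels only. A short predicted gene, Gm20594, took 68.5% and 61.0% of all FPKM in the Glut2H STZ and control libraries and was not the highest row in the Glut2L ones. Markers of other cells were high in the Glut2H libraries: the summed FPKM of 10 immune genes were 101 in Glut2L STZ, 74.6 in Glut2L control, 2883 in Glut2H STZ and 2639.6 in Glut2H control. In that order of libraries they were 13.2, 28.6, 208 and 219 for 6 endothelial genes, 18.1, 41.3, 629 and 757 for 6 stromal genes, and 291, 2641, 3613 and 3311 for 8 acinar genes. In Glut2L against Glut2H in STZ mice, 8 of 9 measured immune genes, 6 of 6 endothelial, 6 of 6 stromal and 7 of 7 acinar genes were 2-fold lower, and in control mice 9 of 9, 6 of 6, 6 of 6 and 0 of 7. Among all measured genes 17.8% were 2-fold lower in STZ mice and 18.5% in control mice. In STZ against control they were 2-fold lower for 7 of 7 acinar genes in Glut2L and 0 of 7 in Glut2H, 2 of 5 and 2 of 6 endothelial, 1 of 6 and 1 of 6 stromal, and 0 of 9 and 1 of 9 immune genes, with 1 of 9 immune genes higher in Glut2L. The shares of all genes were 11.1% lower and 10.2% higher in Glut2L, and 13.8% lower and 9.62% higher in Glut2H. Cd3e was listed at 0 in both Glut2L libraries, and the amylase gene Amy2a5 in all 4. The part of these cells in any result below was not tested, and in bulk RNA fewer cells of a type and less RNA per cell cannot be told apart.

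The insulin genes of the mouse are near copies, which matters for any ratio between them, so their coding sequences are shown first. Ins1 (ENSMUSG00000035804) lies on the plus strand of chromosome 19 and has its coding bases in 1 exon (chr19:52264624-52264947, GRCm38). Ins2 (ENSMUSG00000000215) lies on the minus strand of chromosome 7 with coding bases in 2 exons (chr7:142678716-142679533). Shown are the first 300 coding bases of each GENCODE M21 transcript, of 324 in Ins1 and 330 in Ins2 without the stop codon. Capitals mark bases that differ between the aligned genes or have no partner.
Ins1 coding: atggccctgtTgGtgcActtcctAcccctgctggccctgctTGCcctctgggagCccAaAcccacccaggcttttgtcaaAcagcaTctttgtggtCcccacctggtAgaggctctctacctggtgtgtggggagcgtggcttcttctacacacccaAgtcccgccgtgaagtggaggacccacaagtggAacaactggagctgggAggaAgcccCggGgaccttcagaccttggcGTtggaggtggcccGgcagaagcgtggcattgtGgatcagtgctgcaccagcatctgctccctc
Ins2 coding: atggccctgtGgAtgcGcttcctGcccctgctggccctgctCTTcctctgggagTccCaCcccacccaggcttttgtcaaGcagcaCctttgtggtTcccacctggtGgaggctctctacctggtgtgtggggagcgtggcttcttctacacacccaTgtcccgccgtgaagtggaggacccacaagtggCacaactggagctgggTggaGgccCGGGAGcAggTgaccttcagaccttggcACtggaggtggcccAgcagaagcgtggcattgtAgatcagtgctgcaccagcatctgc
Over the whole coding part, 300 of 330 aligned positions were identical (90.9%), 24 were substituted and 6 were gaps, and the longest identical stretch was 54 bases. Fragments that lie within such a stretch cannot be assigned to 1 gene by sequence, so the split between Ins1 and Ins2 rests on the authors' counting. The annotated transcripts also differ in length, 1062 bases for Ins1 and 478 for Ins2, and a per-length ratio between them depends on these models.

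Promoters from RefSeq (GRCm38.p6), the 250 bases before the start site, were at hand for 9 of the 10 genes, all but Ins2. Shown are those of the beta cell hormones Ins1 and Iapp, of Gcg, which differed most with STZ among the abundant genes, and of Ppy and Pyy, whose ratio to each other varied least. They lie at chr19:52264047-52264296 (plus strand), chr6:142298175-142298424 (plus), chr2:62483654-62483903 (minus), chr11:102101320-102101569 (minus) and chr11:102107833-102108082 (minus). Capitals mark the E-box CATCTG, which the beta cell factor Neurod1 can bind, and the homeodomain core TAAT, both on either strand.
Ins1 promoter: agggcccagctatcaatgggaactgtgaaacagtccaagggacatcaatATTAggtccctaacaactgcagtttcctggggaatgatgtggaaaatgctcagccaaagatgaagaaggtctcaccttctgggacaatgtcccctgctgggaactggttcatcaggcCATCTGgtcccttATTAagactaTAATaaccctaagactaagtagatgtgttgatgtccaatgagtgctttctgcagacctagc
Iapp promoter: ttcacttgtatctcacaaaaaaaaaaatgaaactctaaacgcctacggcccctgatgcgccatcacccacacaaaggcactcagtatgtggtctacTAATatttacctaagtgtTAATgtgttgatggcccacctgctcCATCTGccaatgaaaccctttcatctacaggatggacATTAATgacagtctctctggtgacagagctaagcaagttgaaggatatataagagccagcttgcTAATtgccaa
Gcg promoter: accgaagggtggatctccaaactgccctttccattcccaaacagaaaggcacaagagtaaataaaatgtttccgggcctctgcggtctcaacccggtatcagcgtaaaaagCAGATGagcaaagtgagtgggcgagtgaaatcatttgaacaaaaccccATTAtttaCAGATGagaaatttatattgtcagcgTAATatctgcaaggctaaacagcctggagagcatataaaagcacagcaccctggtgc
Ppy promoter: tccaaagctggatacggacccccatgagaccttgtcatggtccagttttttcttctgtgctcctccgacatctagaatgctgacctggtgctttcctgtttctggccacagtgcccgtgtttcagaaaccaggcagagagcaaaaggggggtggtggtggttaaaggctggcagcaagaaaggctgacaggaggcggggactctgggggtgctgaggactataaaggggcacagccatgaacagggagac
Pyy promoter: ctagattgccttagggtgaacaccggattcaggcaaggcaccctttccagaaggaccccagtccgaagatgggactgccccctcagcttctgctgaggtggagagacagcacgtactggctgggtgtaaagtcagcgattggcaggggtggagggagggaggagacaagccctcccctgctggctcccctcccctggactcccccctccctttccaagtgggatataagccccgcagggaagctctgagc
The E-box had 1 match upstream of Ins1, 1 of Iapp, 1 of Ucn3 and 2 of Gcg. It was present in 14.4% of 32851 promoters of this length. TAAT, found in 54.9% of promoters, had 3 matches in Ins1, 5 in Iapp, 2 in Gcg, 2 in Ucn3 and 1 in Sst. Neither motif was present in the windows of Ppy, Pyy, Ghrl and Npy, and the E-box was not in that of Sst. The cyclic AMP response element TGACGTCA, in 1.55% of promoters, was present upstream of Sst, the gene known for it, and in none of the other 8. These are matches of letters only.

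Insulin 2 was the most abundant hormone transcript in every library. Ins2 stood at 175841 FPKM in Glut2L STZ and 294540.0 in Glut2L control, against 52596 in Glut2H STZ and 57345 in Glut2H control. It ranked 2 among all rows in both Glut2L libraries and 4 in both Glut2H libraries. Ins1 followed at 20766 and 30842 FPKM in Glut2L STZ and Glut2L control, and at 8471 and 8955 FPKM in Glut2H STZ and Glut2H control. Both genes were thus highest in Glut2L control, and their levels in the Glut2H libraries lay close together. Iapp, next in each library, had 12067 and 11883 FPKM in Glut2L STZ and Glut2L control and 5868 and 4571 FPKM in Glut2H STZ and Glut2H control. Unlike the insulins, it was not lower in STZ than in control in either gate at the deposited scale.

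**Figure D1:**
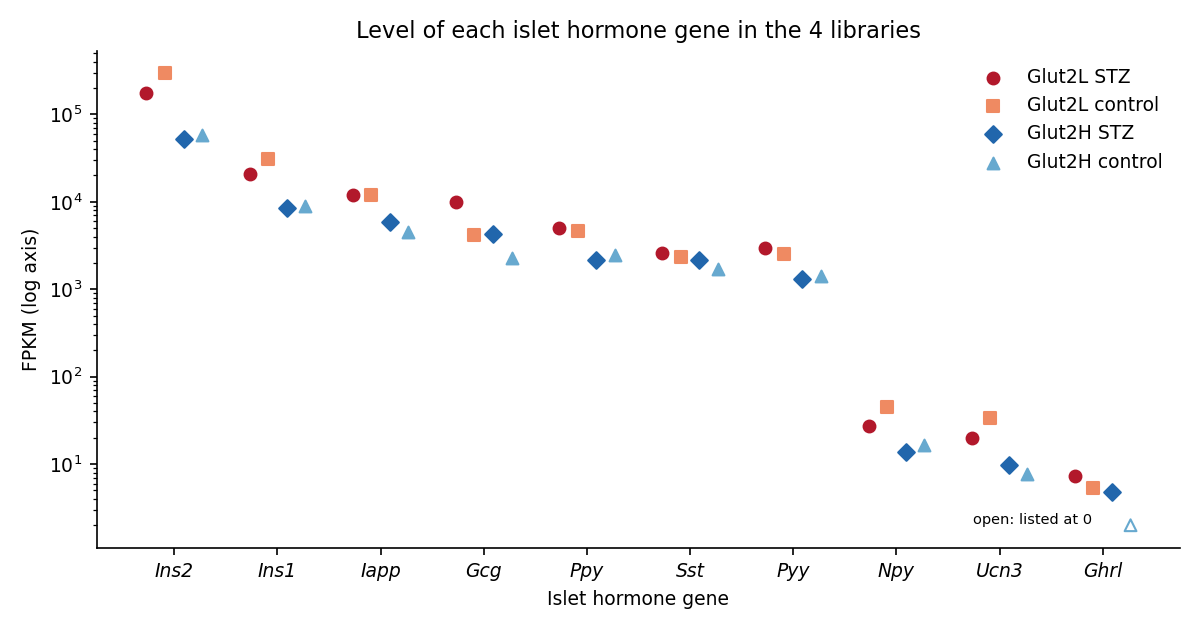
FPKM of the 10 islet hormone genes (log axis) in the Glut2L STZ, Glut2L control, Glut2H STZ and Glut2H control libraries, 1 point per library. Ins2 leads in all 4, from 52596 to 294540.0 FPKM, and Npy, Ucn3 and Ghrl lie below 50 FPKM, with Ghrl listed at 0 in Glut2H control (open symbol).

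Hormones of the other islet cells were abundant although the sort was for insulin. Gcg (chromosome 2, 62474530 to 62483650, minus strand) had 9893 FPKM in Glut2L STZ and 4170.0 in Glut2L control, against 4337 in Glut2H STZ and 2287 in Glut2H control. It ranked 4 of the 10 in both STZ libraries and 5 in both control libraries. Ppy had 4962 and 4649 FPKM in Glut2L STZ and Glut2L control, and 2149 and 2483 FPKM in Glut2H STZ and Glut2H control. Pyy, whose locus lies 5356 bases from that of Ppy on chromosome 11, had 2939 and 2532 FPKM in Glut2L STZ and Glut2L control, and 1305 and 1424 FPKM in Glut2H STZ and Glut2H control. Both were higher in the Glut2L libraries, with little between STZ and control. Sst (chromosome 16, 23889581 to 23890844, minus strand) had the narrowest range of the 10 genes, with 2604 and 2366 FPKM in Glut2L STZ and Glut2L control and 2157 and 1702 FPKM in Glut2H STZ and Glut2H control.

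Npy, Ucn3 and Ghrl were scarce. Npy (chromosome 6, 49822710 to 49829507) stood at 27.5 and 44.8 FPKM in Glut2L STZ and Glut2L control and at 13.8 and 16.5 FPKM in Glut2H STZ and Glut2H control. Ucn3 (chromosome 13, 3940688 to 3945349) had 20.1 and 33.5 FPKM in Glut2L STZ and Glut2L control and 9.75 and 7.79 FPKM in Glut2H STZ and Glut2H control. Both followed the insulins in being highest in Glut2L control. Ghrl had 7.26 and 5.37 FPKM in Glut2L STZ and Glut2L control and 4.80 FPKM in Glut2H STZ, and was listed at 0 in Glut2H control. Its row (chromosome 6, 113714971 to 113719880) overlaps the antisense genes Gm26982 and Gm44033, and that of Iapp (chromosome 6, 142234227 to 142322981) spans the antisense genes Slco1a5 and Gm25430. No source used here tells whether reads were counted by strand.

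The authors' deposited intervals around the FPKM were wide, and their level is not stated. Of the 40 values 38 lay inside their own interval, and the 2 outside were Ins2 (298849 to 301268) and Sst (395 to 2308), both in Glut2L control. Among 36 pairs of neighbours in the order of levels, the intervals overlapped in 30. Over the 4 comparisons of 10 genes they overlapped in 39 of 40, the exception being Ins2 in Glut2L control against Glut2H control, where the interval does not hold its own value. Overlap was the rule in the table: among all measured genes the intervals did not overlap for 5.13% between gates in STZ mice, 4.71% between gates in control mice, 0.731% for STZ against control in Glut2L and 1.04% in Glut2H.

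The first question was how the libraries labelled Glut2L differ from those labelled Glut2H. All 10 hormone genes were higher in the Glut2L library than in the Glut2H library, in STZ mice and in control mice, and Ins2 differed most among the genes with a value above 0 in both libraries. On the scale of log2(FPKM + 1), Ins2 was higher by 1.74 in STZ mice and by 2.36 in control mice, or 3.34-fold and 5.14-fold. Ins1 was higher by 1.29 and 1.78, Iapp by 1.04 and 1.38 and Ucn3 by 0.97 and 1.97. Sst differed least in both pairs, by 0.27 and 0.47.

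Counted at 2-fold or more, 6 of the 10 genes were higher in Glut2L in STZ mice, where 22.9% of 15839 measured genes were, and 6 of 10 in control mice, where 19.7% of 16234 were. None of the 10 was 2-fold lower, against 17.8% and 18.5% of genes. In STZ mice the 6 were Ins1, Ins2, Iapp, Gcg, Ppy and Pyy, while Ucn3, 2.06-fold higher in FPKM, fell short of 2-fold once the pseudocount of 1 was added. In control mice they were Ins1, Ins2, Iapp, Npy, Ucn3 and Ghrl, the last against a library listed at 0. Gcg, Ppy and Pyy, at 0.87, 0.90 and 0.83 on the log2 scale in control mice, thus lay just short of 2-fold there and just past it in STZ mice, at 1.19, 1.21 and 1.17. The median of the 10 genes was 1.11 in STZ mice and 1.38 in control mice, beside 0.23 and 0.15 for all genes. Centring each comparison on the median of all genes, the count in STZ mice was 2, Ins1 and Ins2. With all FPKM rescaled to an equal sum it was 10 in both pairs, where the medians of all genes moved to 1.18 and 0.87.

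**Figure D2:**
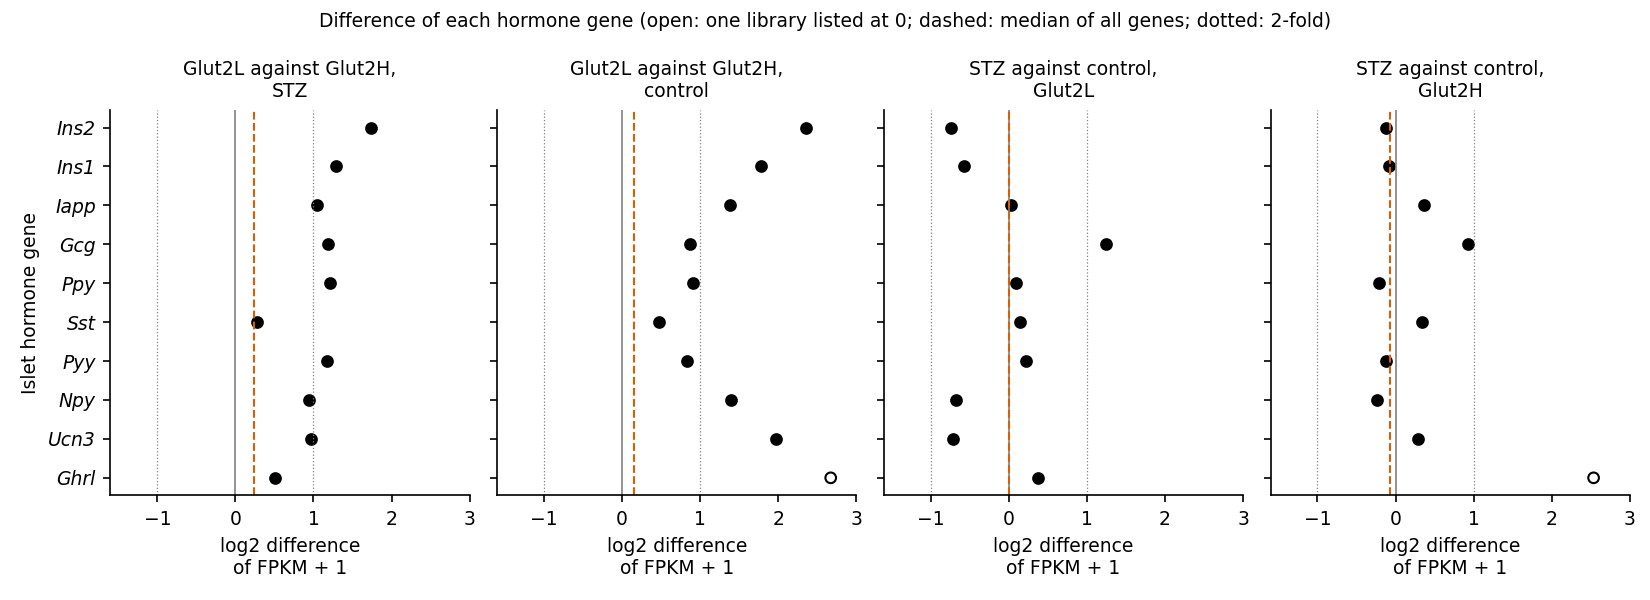
Difference on the log2(FPKM + 1) scale for each hormone gene in Glut2L against Glut2H (STZ mice, then control mice) and in STZ against control (Glut2L, then Glut2H). The dashed line is the median of all measured genes, dotted lines mark 2-fold, and open symbols compare with a library listed at 0. The gate panels lie right of 0 for all genes, while in the STZ panels Gcg is the farthest right of the filled symbols, at 1.25 and 0.92.

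Within a library, ratios between hormones do not depend on how libraries were scaled to each other. Per 100 FPKM of Ins2 there were 5.63 FPKM of Gcg in Glut2L STZ and 1.42 in Glut2L control, against 8.25 in Glut2H STZ and 3.99 in Glut2H control. The same ratio for Sst was 1.48 in Glut2L STZ, 0.803 in Glut2L control, 4.10 in Glut2H STZ and 2.97 in Glut2H control. Both ratios were lowest in Glut2L control. Ppy gave 2.82, 1.58, 4.09 and 4.33, and Pyy gave 1.67, 0.860, 2.48 and 2.48, per 100 FPKM of Ins2 in Glut2L STZ, Glut2L control, Glut2H STZ and Glut2H control.

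At 2-fold or more, the ratio to Ins2 was lower in Glut2L than in Glut2H for Sst and Ghrl among 9 genes in STZ mice, and for Gcg, Sst, Ppy and Pyy among 8 genes in control mice. It was 2-fold higher for none. Among all genes the ratio to Ins2 was that much lower for 68.0% of 14062 genes in STZ mice and 85.9% of 14651 in control mice, and that much higher for 3.49% and 1.16%. The median difference of the ratio was -0.70 for the hormone genes and -1.50 for all genes in STZ mice, and -1.22 and -2.19 in control mice.

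**Figure D3:**
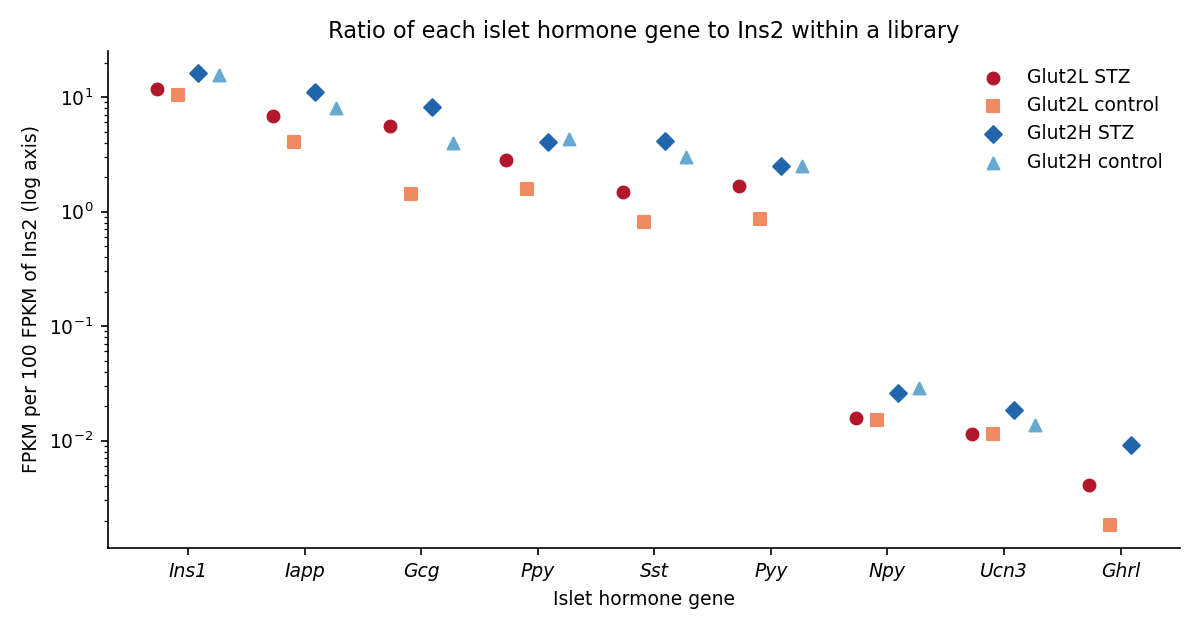
FPKM of each hormone gene per 100 FPKM of Ins2 in the same library (log axis), 1 point per library. Ghrl in Glut2H control, listed at 0, is not drawn. Gcg ranges from 1.42 in Glut2L control to 8.25 in Glut2H STZ, while Ins1 stays between 10.5 and 16.1.

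The insulin genes kept a fairly steady ratio to each other. Ins1 amounted to 11.8 FPKM per 100 FPKM of Ins2 in Glut2L STZ and 10.5 in Glut2L control, against 16.1 in Glut2H STZ and 15.6 in Glut2H control. The ratio was lower in Glut2L by 0.45 on the log2 scale in STZ mice and by 0.58 in control mice, whereas STZ and control differed by 0.17 in Glut2L and 0.04 in Glut2H. Ins1 and Ins2 thus differed more by gate than by treatment. Iapp per 100 FPKM of Ins2 was 6.86 in Glut2L STZ, 4.03 in Glut2L control, 11.2 in Glut2H STZ and 7.97 in Glut2H control. This ratio was higher with STZ in both gates, 1.70-fold in Glut2L and 1.40-fold in Glut2H. On the log2 scale that was 0.77 and 0.48, beside medians of 0.76 and 0.07 for the ratio of all genes to Ins2. In Glut2L the Iapp ratio thus differed no more than that of most genes, and its FPKM was 1.02-fold of control.

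The second question was how STZ mice differed from control mice within a gate. Gcg was the abundant hormone gene with the largest difference in both gates, and it was higher in STZ. On the log2(FPKM + 1) scale it was higher by 1.25 in Glut2L (2.37-fold) and by 0.92 in Glut2H (1.90-fold). Ins2 was 0.597-fold and Ins1 0.673-fold of control in Glut2L, and 0.917-fold and 0.946-fold in Glut2H. In Glut2L, Npy and Ucn3, at 0.615-fold and 0.599-fold of control, lay beside the insulins. Iapp, Sst, Ppy and Pyy differed by between 0.02 and 0.22 in Glut2L on the log2 scale, the sign of the Iapp value of 0.02 turning with an equal sum without the highest rows.

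Past 2-fold there was 1 gene of 10 in each gate. It was Gcg in Glut2L, where 10.2% of 15602 genes were 2-fold higher, and Ghrl in Glut2H, where 9.62% of 15558 were and where the control library is listed at 0. None was 2-fold lower, against 11.1% and 13.8% of genes. Against control, 92.9% of genes measured in Glut2L and 89.4% of those in Glut2H had a smaller log2 difference than Gcg. The medians of the 10 genes, 0.06 in Glut2L and 0.10 in Glut2H, lay beside 0.00 and -0.07 for all genes. The acinar markers given above were lower in Glut2L STZ too, and their part in these differences was not tested.

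Set against Ins2, the Gcg difference was larger. The ratio of Gcg to Ins2 was 3.97-fold higher in STZ than in control in Glut2L and 2.07-fold higher in Glut2H. Ghrl, at 2.26-fold in Glut2L, was the other gene past 2-fold, so 2 of 9 genes passed in Glut2L, where 34.3% of 14223 genes did, and 1 of 8 in Glut2H, where 12.7% of 14098 did. None of the hormone genes had a ratio 2-fold lower, against 4.79% and 11.4% of genes. Since Ins2 itself was lower in Glut2L STZ, the ratio to it was higher there for Sst (1.84-fold), Ppy (1.79-fold) and Pyy (1.94-fold) too, beside a median of 0.76 on the log2 scale for all genes. In Glut2H the same ratios were 1.38-fold, 0.944-fold and 0.999-fold.

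Ratios among the hormones of the other islet cells set Gcg apart from its neighbours. For each FPKM of Ppy there were 1.99 FPKM of Gcg in Glut2L STZ and 0.897 in Glut2L control, and 2.02 in Glut2H STZ and 0.921 in Glut2H control. The ratio was therefore close to equal between gates and 2.22-fold and 2.19-fold higher with STZ in Glut2L and Glut2H. Gcg to Sst was 3.80 in Glut2L STZ and 1.76 in Glut2L control, against 2.01 in Glut2H STZ and 1.34 in Glut2H control. Ppy to Pyy was the steadiest ratio computed, at 1.69 and 1.84 in Glut2L STZ and Glut2L control and 1.65 and 1.74 in Glut2H STZ and Glut2H control. The coding sequences of the pair shared 51.1% of aligned bases, with no identical run over 7 bases.

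Together Gcg, Sst, Ppy and Pyy made up 8.90% of the summed FPKM of the 10 genes in Glut2L STZ and 3.91% in Glut2L control, against 12.9% in Glut2H STZ and 10.02% in Glut2H control. Insulin made up 85.8%, 92.7%, 79.4% and 84.1% in Glut2L STZ, Glut2L control, Glut2H STZ and Glut2H control. Within the 4 genes, Gcg held 48.5% in Glut2L STZ and 30.4% in Glut2L control, and 43.6% in Glut2H STZ and 29.0% in Glut2H control. Ppy held 24.3% and 33.9% in Glut2L STZ and Glut2L control and 21.6% and 31.4% in Glut2H STZ and Glut2H control. In both gates the share of Gcg was thus higher, and that of Ppy lower, in STZ than in control. Sst held 12.8% and 17.2% in Glut2L STZ and Glut2L control and 21.7% and 21.6% in Glut2H STZ and Glut2H control.

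**Figure D4:**
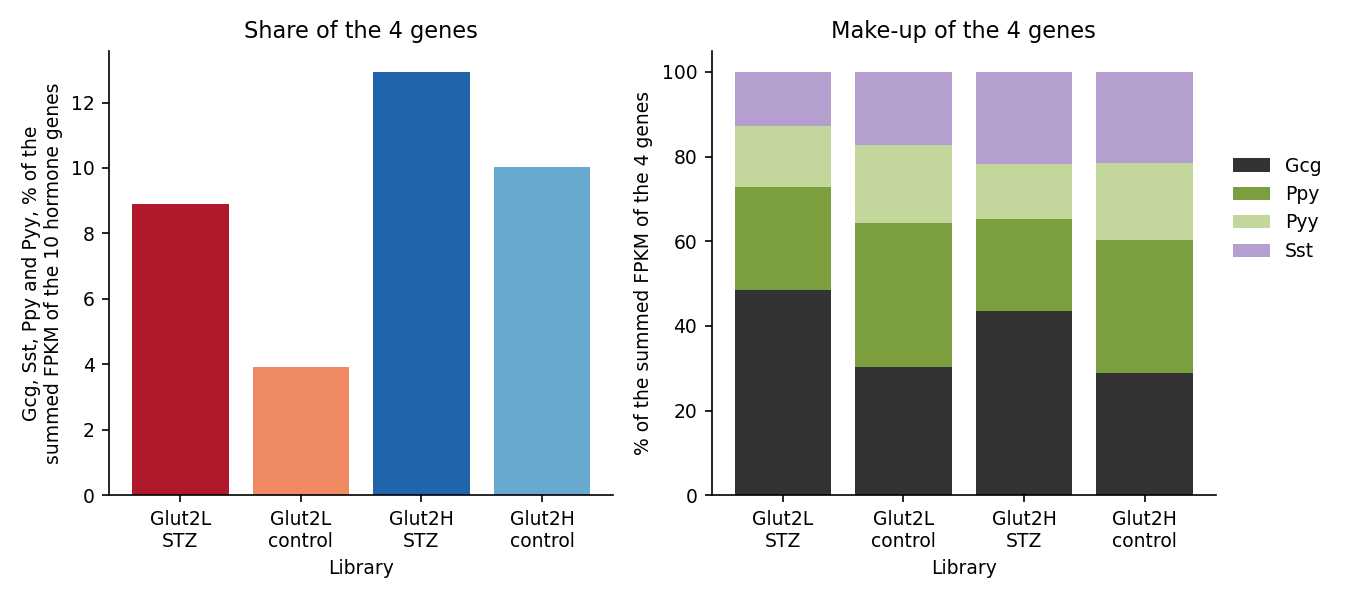
Left, bars give Gcg, Sst, Ppy and Pyy together as a percentage of the summed FPKM of the 10 hormone genes in each library. Right, stacked bars give the share of each of the 4 genes in their own sum. Gcg takes 48.5% and 43.6% in the STZ libraries and 30.4% and 29.0% in the control libraries.

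Chga, which encodes chromogranin A, a granule protein common to islet endocrine cells, gave a denominator outside the hormones. Chga itself had 4494 and 5885 FPKM in Glut2L STZ and Glut2L control and 1146 and 1389 FPKM in Glut2H STZ and Glut2H control. Per FPKM of Chga there were 39.1 FPKM of Ins2 in Glut2L STZ and 50.1 in Glut2L control, against 45.9 in Glut2H STZ and 41.3 in Glut2H control. The gap of 3.34-fold and 5.14-fold in Ins2 FPKM between the gates was thus 0.852-fold in STZ mice and 1.21-fold in control mice once set against Chga. Gcg per FPKM of Chga was 2.20 in Glut2L STZ and 0.709 in Glut2L control, against 3.79 in Glut2H STZ and 1.65 in Glut2H control. Relative to Chga, Gcg, Sst, Ppy and Pyy were lower in Glut2L in both pairs, and so were most genes. Sst was at 0.308-fold and 0.328-fold of Glut2H in STZ and control mice. Of all genes, 75.2% were 2-fold lower relative to Chga in STZ mice and 80% in control mice. Their medians were -1.73 and -1.92 on the log2 scale, beside -1.70 and -1.61 for Sst. Relative to Chga, Gcg was 3.11-fold and 2.30-fold higher with STZ in Glut2L and Glut2H. The medians of all genes there were 0.40 and 0.22 on the log2 scale, beside 1.64 and 1.20 for Gcg.

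**Figure D5:**
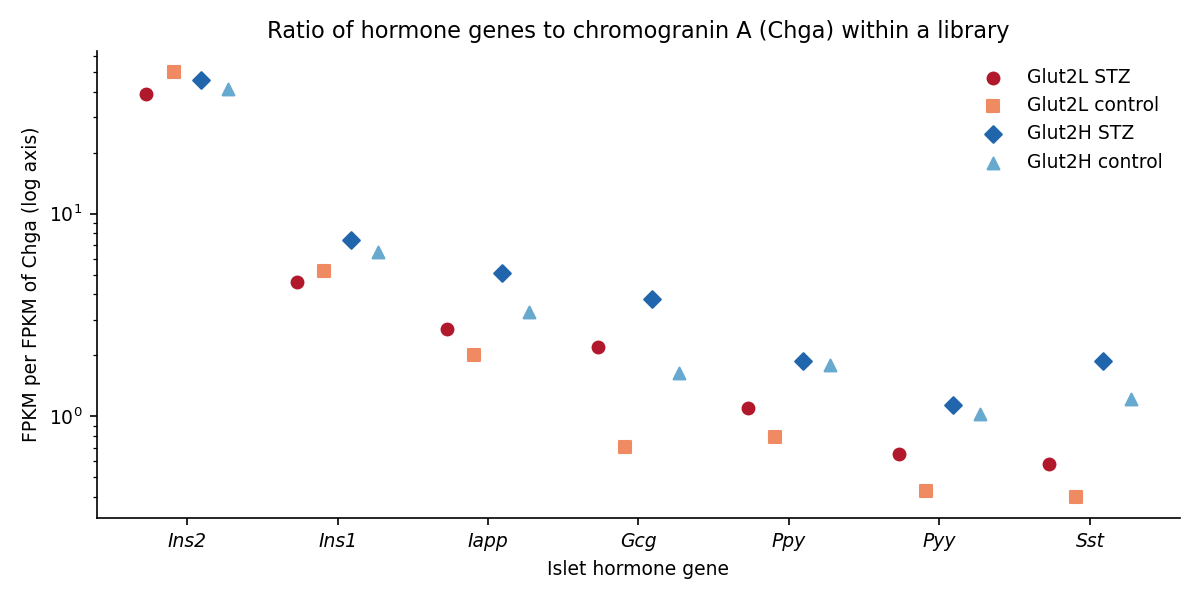
FPKM of 7 hormone genes per FPKM of Chga in the same library (log axis), 1 point per library. Ins2 lies between 39.1 and 50.1 in all 4 libraries. Gcg, Ppy, Pyy and Sst are lower in the Glut2L libraries than in the Glut2H library of the same treatment. Relative to Chga, 75.2% of all genes were 2-fold lower in Glut2L in STZ mice and 80% in control mice.

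Genes of hormone processing and of the cell types behind the hormones were set beside them. Their counts stand beside shares of all genes of 22.9% higher and 17.8% lower in Glut2L in STZ mice, 19.7% and 18.5% in control mice, 10.2% and 11.1% in STZ against control in Glut2L, and 9.62% and 13.8% in Glut2H. All 13 genes of prohormone processing and granules were at least 2-fold higher in Glut2L in both pairs (medians 1.64 in STZ and 1.75 in control mice), and none differed 2-fold between STZ and control in either gate. Vgf, a granule peptide precursor, differed most in STZ mice, at 225 FPKM in Glut2L and 49.98 in Glut2H, and Pcsk2, the convertase that frees glucagon from its precursor, least, at 214 FPKM in Glut2L and 96.3 in Glut2H. Of 12 genes listed as beta cell factors and markers, 11 were 2-fold higher in Glut2L in STZ mice and 10 in control mice. The list includes the gate gene Slc2a2, whose values are given above, and whether its genes are particular to beta cells was not tested. None of the 12 differed 2-fold between STZ and control in either gate (medians -0.0003 in Glut2L and 0.06 in Glut2H). G6pc2, the most abundant, was the gene of this list with the smallest gate difference in STZ mice. It stood at 247 FPKM in Glut2L STZ and 420.0 in Glut2L control, against 136 in Glut2H STZ and 98.1 in Glut2H control.

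Alpha cell genes differed less evenly. Of 8 measured in STZ mice, 2 were 2-fold higher and 2 lower in Glut2L (median 0.75), and of 9 in control mice 2 and 2 (median 0.10). Tm4sf4, the most abundant, had 171 and 140 FPKM in Glut2L STZ and Glut2L control and 41.4 and 38.8 FPKM in Glut2H STZ and Glut2H control. Ttr, a transthyretin gene strong in alpha cells, had 59.6 and 34.8 FPKM in Glut2L STZ and Glut2L control, and 5.82 and 9.11 FPKM in Glut2H STZ and Glut2H control. Between STZ and control, 1 of 7 alpha cell genes was 2-fold higher in Glut2L and 0 of 8 in Glut2H (medians 0.28 and 0.27). It was Gc, the vitamin D binding protein, named after its value was seen, at 31.0 FPKM in Glut2L STZ and 13.2 in Glut2L control, against 16.1 in Glut2H STZ and 11.5 in Glut2H control. Pou3f4, a transcription factor gene of alpha cells, was listed at 0 in all 4 libraries.

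Delta cell genes had medians of 0.42 in STZ and 0.34 in control mice between gates, with 1 of 5 and 2 of 5 measured genes 2-fold higher in Glut2L and 1 of 5 lower in each. Rbp4, the most abundant, had 132 and 97.3 FPKM in Glut2L STZ and Glut2L control and 71.3 and 39.8 FPKM in Glut2H STZ and Glut2H control. Sstr3, a somatostatin receptor also listed among the receptors, stood at 29.98 FPKM in Glut2L STZ and 7.002 in Glut2H STZ, and Calcrl, which endothelial cells express as well, at 0.613 and 11.3 FPKM in Glut2L STZ and Glut2H STZ. Of 4 measured genes of PP and epsilon cells, none was 2-fold higher and 1 was lower in Glut2L in STZ mice, and 1 and 1 in control mice. Tspan8 had 10.4 FPKM in Glut2L STZ and 5.06 in Glut2H STZ. Acsl1 had 12.5 and 4.77 FPKM in Glut2L STZ and Glut2L control and 28.1 and 19.3 FPKM in Glut2H STZ and Glut2H control. Between STZ and control 2 of 4 of these genes were 2-fold higher in Glut2L, Acsl1 and Etv1, and 0 of 3 in Glut2H, and no delta cell gene differed 2-fold in either gate. Mboat4, the enzyme that acylates ghrelin, stayed under 1 FPKM in all 4 libraries.

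The genes whose pattern over the 4 libraries lay nearest to a hormone were found among 3943 genes with at least 10 FPKM in each library. These were protein-coding or without a type in GENCODE M21, with status OK in all 4 libraries and a locus of at least 300 bases. Nearness was the Euclidean distance between log2(FPKM + 1) profiles centred on their own means. Nearest to Ins2 were Cebpd (distance 0.14), Ubb (0.16), Prss53 (0.17), Slc2a5 (0.19) and Creld2 (0.22). Cebpd, a transcription factor gene, had 81.4 FPKM in Glut2L STZ, 136 in Glut2L control, 25.4 in Glut2H STZ and 28.9 in Glut2H control. For Gcg they were farther off: Zmynd8 (0.28), R3hdm2 (0.35), Phf10 (0.42), Hist1h4h (0.43) and Stard10 (0.45). For Sst they were Tulp4 (0.05), Golph3 (0.07), Eif4ebp1 (0.08), Rab5b (0.08) and Asah1 (0.08), and for Ppy Akap13 (0.03), Mdh1 (0.05), Syt7 (0.07), Slc25a39 (0.10) and Ip6k2 (0.10). Among the hormone genes themselves, Ppy and Pyy were the closest pair, at 0.12, followed by Ins1 and Ucn3 at 0.29, while Ins1 and Ins2 were 0.53 apart. Distances over 4 libraries describe likeness of pattern in these libraries alone.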

How the data were processed

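Total RNA of 4 sorted populations was sequenced after removal of ribosomal RNA (TruSeq Stranded Total RNA with Ribo-Zero Gold, per the labels' protocols). The submitters' processing notes name TopHat2, SAMtools, Cuffdiff and the build GRCm38 (mm10). Their versions, the annotation and the library normalization were not given in the sources used here. What the authors deposited is FPKM with interval bounds and a status, per the file headers. Tables of the single samples held the same FPKM: 0 of 156680 values differed. Read depth could not be recovered: among 1150 genes below 0.5 FPKM in both Glut2L libraries, the fullest bin of 0.05 of the log2 ratio held 25.

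Differences are log2(FPKM + 1), for genes with at least 1 FPKM in either library and status OK in both, called at 2-fold. Ratios within a library used no pseudocount. GENCODE M21, matched by Ensembl ID to 37607 of 39170 rows, gave gene types and positions. Python 3.11.15 with pandas 2.3.3 and numpy 2.4.6 was used, and the procedure was tested on simulated data. Besides the members, the text names the genes nearest in pattern and, from each of 11 lists, the most abundant and those with the largest and smallest gate difference in STZ mice. Some genes that this rule names are not reported here. Alternatives changed pseudocount, filter, scaling, denominator and threshold, or asked for intervals without overlap. The members and lists were chosen with earlier results of these data known.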

Additional observations from a re-analysis of the deposited data

Results flagged for a closer look

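The difference between STZ and control ran in opposite directions in the gates for 3 hormone genes, and this was not tested in any of them. How many of all genes did so is not given here, and the deposited intervals of these genes overlapped in each comparison. Each gate has 1 library per treatment. Ppy was higher in STZ than in control by 0.09 in Glut2L and lower in Glut2H, at -0.21, on the log2(FPKM + 1) scale, a difference of 0.30 between the gates. Pyy stood at 0.22 in Glut2L and -0.13 in Glut2H, a difference of 0.34. Relative to Chga, Ppy was higher with STZ by 0.48 in Glut2L and 0.07 in Glut2H, and Pyy by 0.60 and 0.15. Relative to Ins2 the signs of Ppy and Pyy stayed opposite, with Glut2H at -0.08 for Ppy and -0.001 for Pyy. Ucn3 stood at -0.71 in Glut2L and 0.29 in Glut2H, a difference of -1.001. Its levels were 20.1 and 33.5 FPKM in Glut2L STZ and Glut2L control and 9.75 and 7.79 FPKM in Glut2H STZ and Glut2H control. Relative to Ins2, Ucn3 did not keep opposite signs, at 0.005 in Glut2L and 0.45 in Glut2H. Relative to Chga its signs stayed opposite, at -0.35 in Glut2L and 0.60 in Glut2H.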

How the results depend on the processing

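No paired analysis was possible because each group has 1 library and the labels give no replicate numbers; for the same reason no library could be left out. Between gates, the 6 hormone genes 2-fold higher in STZ mice became 2 when each comparison was centred on the median of all genes and 10 with FPKM rescaled to an equal sum, and the 6 in control mice became 10 with that equal sum. The equal sum moved the share of all genes 2-fold higher to 58.4% in STZ and 44.3% in control mice, with 9.79% and 12.1% lower, and the centring to 16.1% and 15.7% higher with 21.3% and 20.8% lower. Requiring intervals without overlap left 0 genes in STZ mice and 1 in control mice, and 0 for STZ against control in either gate, where 0.972% and 0.511% of all genes passed as higher between gates in STZ and control mice, and 0.32% and 0.379% with STZ in Glut2L and Glut2H. The single gene past 2-fold in Glut2H, Ghrl, gave 0 under a pseudocount of 5 and under a filter of 5 FPKM (3.66% and 8.92% of all genes). For ratios, Ins1 as the denominator left 1 gene lower in Glut2L in STZ and 1 in control mice (2 and 4 with Ins2), beside 52.2% and 71.7% of all genes. A 1.5-fold threshold gave 5 lower in STZ mice (79.9% of all genes), and in Glut2L 6 higher with STZ in place of 2 (61.3%), where Chga as the denominator gave 1 (19.3%). In Glut2H a pseudocount of 1 gave 2 higher with STZ in place of 1 (11.3%). No called difference of a hormone gene changed sign under the alternatives run. The read depth is unknown, so no counting error can be given for any gene.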

Other observations

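Other peptide hormone genes and the receptors of the islet hormones were looked at as lists. Of 27 other peptide hormone genes, 13 were measured between gates in STZ mice, with 6 at least 2-fold higher and 2 lower in Glut2L (median 0.39), and 17 in control mice, with 6 higher and 7 lower (median -0.01). Between STZ and control, 2 of 13 were higher and 4 lower in Glut2L (median -0.39), and 1 of 16 higher and 9 lower in Glut2H (median -1.34, beside -0.07 for all genes). Of all genes 22.9% were higher and 17.8% lower between gates in STZ mice and 19.7% and 18.5% in control mice, and between STZ and control 10.2% and 11.1% in Glut2L and 9.62% and 13.8% in Glut2H. Most of the 27 genes were scarce: 12 were listed at 0 in Glut2L STZ, 12 in Glut2L control, 17 in Glut2H STZ and 7 in Glut2H control. Among those lower with STZ in Glut2H, Gast, Cck, Vip, Tac1, Cartpt and Gal were listed at 0 in Glut2H STZ. Penk, Insl3 and Insl6 were not. The count and median in Glut2H thus rest largely on values near 0 in 1 library of unknown depth. Nucb2, the nesfatin precursor, was the most abundant, at 182 and 241 FPKM in Glut2L STZ and Glut2L control and 66.4 and 49.98 FPKM in Glut2H STZ and Glut2H control. Gast, the gastrin gene, named after its values were seen, had 1.06 FPKM in Glut2L STZ and 23.8 in Glut2L control, was listed at 0 in Glut2H STZ and had 10.2 FPKM in Glut2H control. Cartpt had 6.09 and 2.64 FPKM in Glut2L STZ and Glut2L control, was listed at 0 in Glut2H STZ and had 2.67 FPKM in Glut2H control, and Adm, the adrenomedullin gene, had 0.726 FPKM in Glut2L STZ against 8.12 in Glut2H STZ.

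Of 22 receptor symbols 21 were in the table and 9 were measured in each comparison. In STZ mice 6 were 2-fold higher and 1 lower in Glut2L (median 1.10), and in control mice 4 and 1 (median 0.44), to be read beside the same shares of all genes. Glp1r, the receptor of the glucagon-like peptide made from Gcg, was the most abundant, at 82.4 and 93.9 FPKM in Glut2L STZ and Glut2L control and 22.2 and 19.998 FPKM in Glut2H STZ and Glut2H control. Igf1r had 79.3 FPKM in Glut2L STZ and 19.5 in Glut2H STZ, and Ramp3, a partner of calcitonin family receptors, 0.128 and 18.3 FPKM in the same libraries. Between STZ and control 1 receptor gene was 2-fold higher and 1 lower in each gate (medians 0.03 in Glut2L and 0.15 in Glut2H). Npy5r, Npy6r and Sstr1 were listed at 0 in all 4 libraries.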
